A study of Homo sapiens with 12 samples.

Results

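The genes described here are 44 of the 23434 genes in the count table, chosen by name as components and regulators of the lysosome and of autophagy. They comprise 3 transcription factors, 6 proteins of the lysosomal membrane, 7 cathepsins and 7 other proteins of the lysosomal lumen. Further members are 5 subunits of the vacuolar proton pump (V-ATPase), 3 autophagy receptor and ATG8 genes and 3 genes of the ULK complex. The last are 7 genes of the phagophore machinery and 3 of PI3 kinase complexes of autophagy and endosomes. Newly made RNA was sequenced after labelling with 5-ethynyl-uridine (EU-seq) in U2OS-MycER cells. This line, derived from a human osteosarcoma, expresses a chimera of Myc and the estrogen receptor (MycER) that 4-hydroxytamoxifen (OHT) activates. The 4 groups of 3 libraries were cells with a non-targeting shRNA (shNT), the same with OHT (shNT+OHT), cells labelled as carrying an shRNA against CDK12 (shCDK12), a kinase of RNA polymerase II, and the latter with OHT (shCDK12+OHT). OHT was given at 300 nM for 40 h. All 4 groups carried MycER and a virus-delivered shRNA induced by doxycycline at 1 µg/mL, were arrested with nocodazole at 100 ng/mL for 8 h, shaken off, and collected 12 h after release, with EU at 0.5 mM for 2 h. The sources used here do not state which shRNA sequence or how many clones were used, nor whether the libraries came from separate cultures, so the p-values measure the spread between libraries, which may be technical.

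Lysosomes are acidic compartments in which cathepsins and glycosidases degrade material delivered by endocytosis and by autophagy. The V-ATPase pumps protons into the lumen, and membrane proteins such as LAMP1 and LAMP2 line the compartment. In autophagy, the ULK kinases and a PI3 kinase complex start a membrane, the phagophore, which is extended with the help of ATG proteins and of ATG8-type proteins such as LC3B and GABARAPL1, takes up cargo through receptors such as p62 (SQSTM1), and fuses with the lysosome. TFEB, TFE3 and MITF are related basic helix-loop-helix leucine zipper factors that activate many of these genes through E-boxes, a type of site that Myc, paired with MAX, also binds.

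Between 1251695 and 10447836 counts were assigned to genes per library. The medians were 4314380 in shNT, 3297982 in shNT+OHT, 5349901 in shCDK12 and 7173020 in shCDK12+OHT, so shNT+OHT was the shallowest group. Levels are given as TMM-scaled CPM, the count of a gene relative to its library total after TMM scaling, which are not divided by gene length and are therefore compared between groups only. CDK12 itself was at 304 ± 17.4 CPM in shNT, 397 ± 38.7 in shNT+OHT, 289 ± 10.9 in the libraries labelled shCDK12 and 214 ± 5.09 in those labelled shCDK12+OHT (SD, n = 3 each). Without OHT its difference between shCDK12 and shNT was -0.076 on the log2 scale (SE 0.084, edgeR adjusted p = 0.447), so the libraries are named by their labels throughout. The summed CPM of 6 mesenchymal markers (COL1A1, FN1, RUNX2, SPARC, THY1 and VIM) ranged from 1595 to 1677 in shNT, 1069 to 1162 in shNT+OHT, 428 to 445 in shCDK12 and 602 to 618 in shCDK12+OHT. All 6 were detected in every library, and 6 markers of blood and epithelial cells summed to between 8.52 and 16.5 CPM. Of these, CDH1 had a median of 8.12 CPM, while ALB, CD3E, KRT20 and PTPRC had at most 1.37 CPM in any library. EPCAM was at 0.820 ± 0.884 CPM in shNT, 1.58 ± 0.965 in shNT+OHT, 8.03 ± 1.45 in shCDK12 and 2.64 ± 0.255 in shCDK12+OHT (SD, n = 3 each). The part of the lower mesenchymal markers and of the higher EPCAM in the results below was not tested. In a bulk library, fewer cells making a transcript and less of it per cell cannot be told apart, and because the table holds no mouse rows, a shift in how much RNA the cells made in all is not visible.

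**Figure D1:**
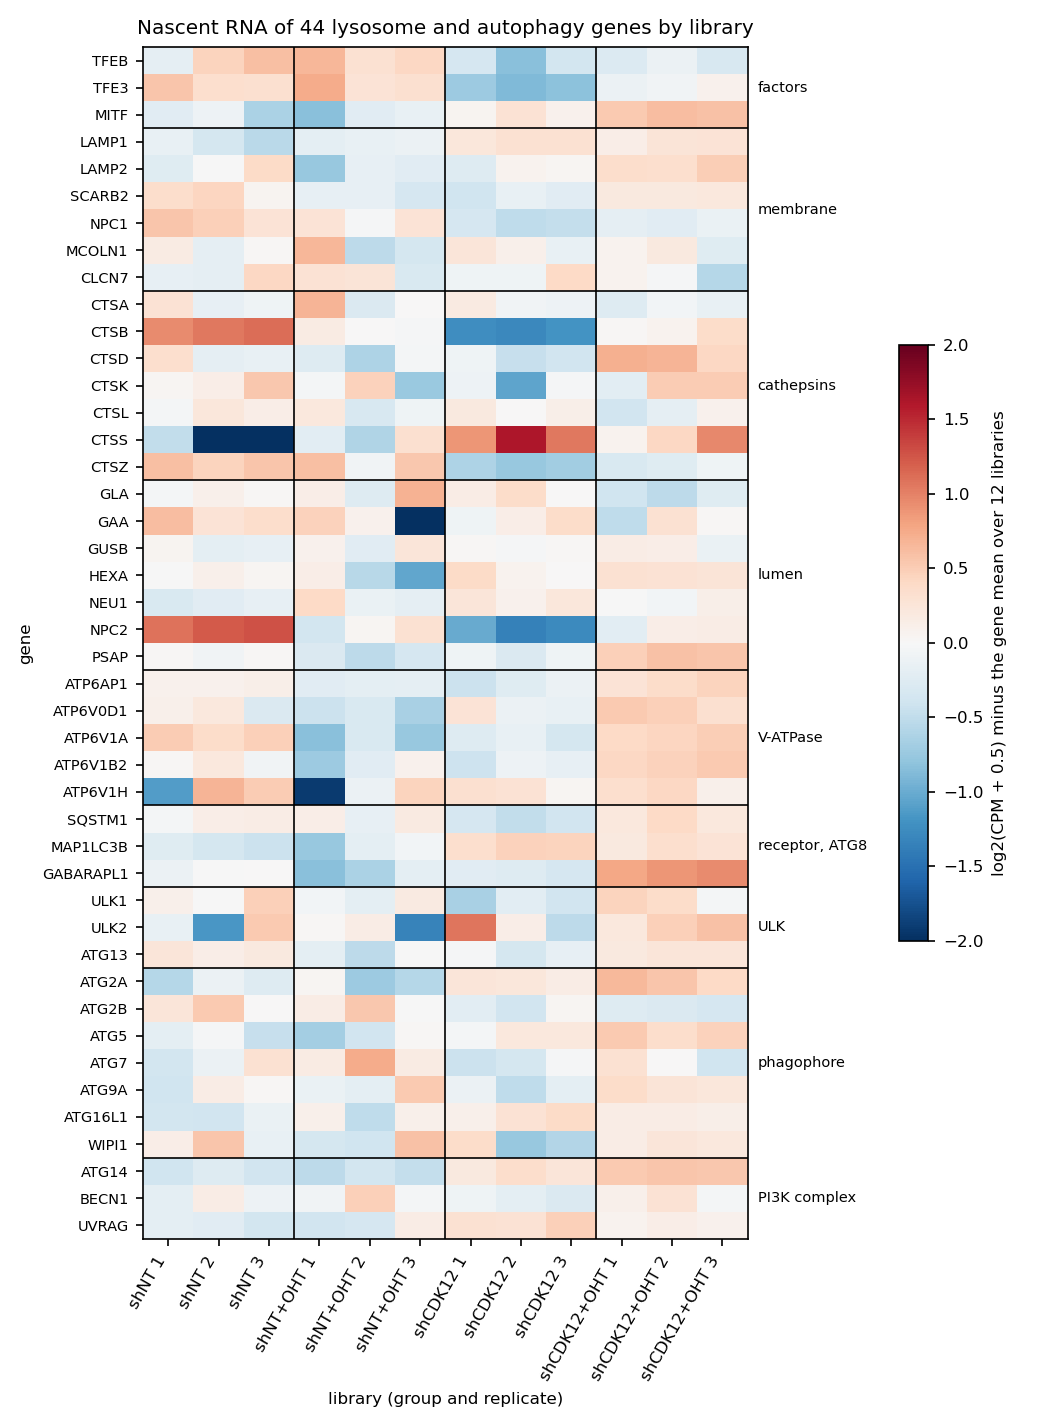
Each cell of the map gives 1 gene (rows, grouped by role) in 1 library (columns), as log2(CPM + 0.5) minus that gene's mean over the 12 libraries, with the colour scale ending at -2 and 2. CTSB and NPC2 are highest in the 3 shNT libraries and lowest in the 3 labelled shCDK12, while GABARAPL1 is highest in the 3 labelled shCDK12+OHT, and CTSS, CTSK and ULK2 rest on few counts.

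Of the 44 genes, 42 could be tested in at least 1 comparison. CTSK had from 4 to 36 counts per library and CTSS from 0 to 54, below the filter (a mean normalized count above 32) in every comparison. ULK2 was tested only for the response to OHT in shCDK12, GAA was not tested in shNT+OHT against shNT or in shCDK12+OHT against shNT+OHT, and WIPI1 was not tested in shNT+OHT against shNT. In the text, a gene is said to rise or fall where the adjusted p of edgeR's quasi-likelihood test (Benjamini-Hochberg over all genes tested in that comparison) was under 0.05. CTSA, GLA, NPC1, NPC2, SCARB2, SQSTM1, ATG7, ATG13, ATG14, ATG16L1, BECN1 and WIPI1 overlap other genes of the table in the RefSeq annotation, and their values are less certain for that reason.

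Upon MycER activation with the non-targeting shRNA, 5 of the 39 genes tested fell and 0 rose. The genes that fell were NPC2, ATP6V1A, CTSB, SCARB2 and GABARAPL1, by between 0.49 and 1.19 on the log2 scale. Over all 10272 genes tested, 8.29% fell and 9.05% rose. The median log2 fold change was -0.10 over the lysosome and autophagy genes and -0.029 over all genes. At an unadjusted p under 0.05 the count of genes that rose was also 0, and 8 were lower, and DESeq2 gave 0 higher and 4 lower. The number that fell was 3 when shNT library 1, 2 or 3 or shNT+OHT library 2 was left out, and 8 when all 12 libraries were fitted together. Among all genes the number that fell was 852 of 10272 as reported, and 309, 276 or 346 without shNT library 1, 2 or 3. It was 1054 without shNT+OHT library 2, and 1680 of 11699 in the fit of all 12 libraries.

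In the libraries labelled shCDK12 against shNT, both without OHT, 14 of 41 genes fell and 9 rose. The largest falls were those of NPC2 (-2.48), CTSB (-2.29), CTSZ (-1.24), TFE3 (-1.23) and NPC1 (-0.91), all as log2 fold changes. The genes that rose were MITF, LAMP1, NEU1, MAP1LC3B, ATG2A, ATG5, ATG16L1, ATG14 and UVRAG, by between 0.33 and 0.75. These counts stand beside 32.4% of all 11718 genes tested falling and 29.6% rising, against 34.1% and 22.0% of the lysosome and autophagy genes, so the shares were near those of all genes. The median log2 fold change was -0.16, with -0.027 over all genes. With every library thinned to 1251695 counts, the number that fell was 9. Thinning left 7498 of all genes tested, of which 2266 fell, with 3800 of 11718 as reported.

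Upon MycER activation in the libraries labelled shCDK12, 21 of 42 genes rose and 2 fell. The rises were led by CTSB (1.41), NPC2 (1.30), GABARAPL1 (1.15), CTSD (0.96) and TFE3 (0.78), as log2 fold changes, and the genes that fell were GLA, the lysosomal alpha-galactosidase, and UVRAG, a partner of Beclin 1. Of all 12519 genes tested, 27.5% rose and 21.5% fell, compared with 50.0% and 4.76% here. The median log2 fold change was 0.32, against 0.048 over all genes. With thinned libraries 13 rose and 0 fell. Thinning left 7430 of all genes tested, of which 1609 rose and 1569 fell. The number that fell was 4 without shCDK12 library 2, 1 without shCDK12 library 3 or without shCDK12+OHT library 1 or 2, and 4 with DESeq2 or with upper-quartile normalization. Among all genes it was 2631, 2376, 2239, 2277, 2900 and 3226 in these fits, in that order, with 2686 as reported.

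Under MycER activation, 16 of 40 genes were higher in the libraries labelled shCDK12+OHT than in shNT+OHT, and 4 were lower. Those with the largest differences were GABARAPL1 (1.42), ATP6V1A (1.14), ATG14 (1.03), MITF (0.99) and ATP6V0D1 (0.95), as log2 fold changes. TFEB, TFE3, CTSZ and GLA were the genes that were lower. Of all 11668 genes tested, 23.8% were higher and 21.6% lower, against 40.0% and 10.0% here, and the median log2 fold change was 0.25, with 0.048 over all genes. The number that were lower was 0, 1 or 2 without shCDK12+OHT library 1, 2 or 3. Among all genes that number was then 1718, 1725 or 1777, with 2522 as reported.

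Whether the response to OHT differed between the shRNAs was tested by the interaction in a fit of all 12 libraries, which uses the same libraries as the comparisons above. The interaction was positive, meaning a more positive response to OHT with shCDK12 than with shNT, for 18 of 41 genes and negative for 1, GLA. Over all 11699 genes tested, 25.6% were positive and 19.6% negative. The median interaction was 0.52 on the log2 scale for the lysosome and autophagy genes and 0.10 over all genes. Upper-quartile normalization moved the latter to -0.017, and the counts were then 15 positive and 3 negative. Among all 11701 genes tested with it, 2479 were positive and 2777 negative. The negative count was 3 without shNT+OHT library 1 or 2 and 0 without shCDK12 library 2 or shCDK12+OHT library 2. Among all genes it was 2592, 2400, 2148 and 2053 in these fits, in that order, with 2295 as reported.

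**Figure D2:**
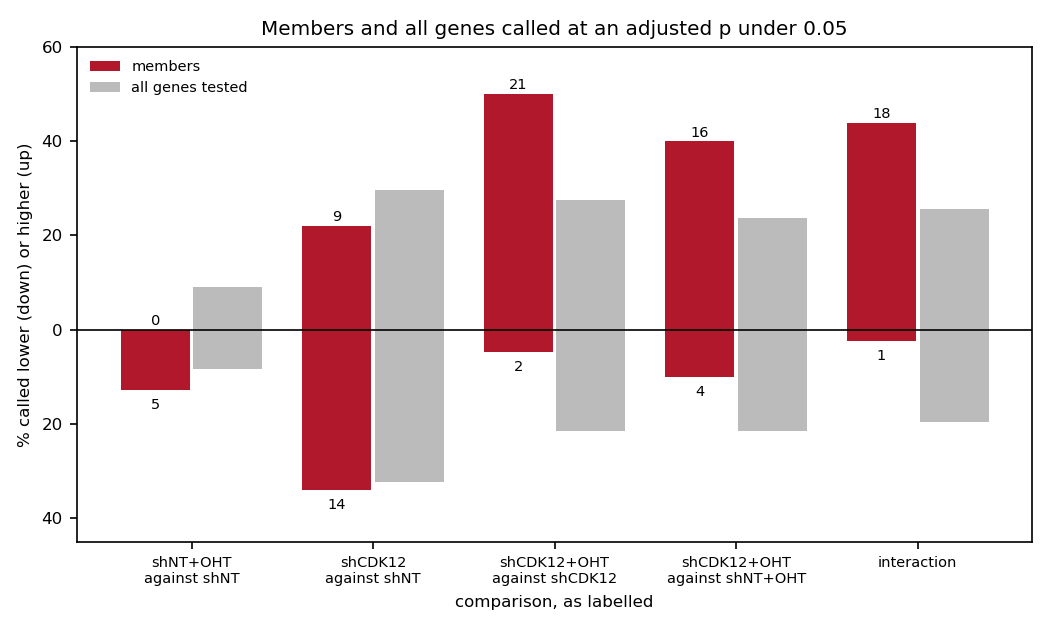
Bars give the percentage of the lysosome and autophagy genes (red) and of all genes tested (grey) that were higher (upwards) or lower (downwards) at an edgeR adjusted p under 0.05, with the number of genes beside each red bar. In shCDK12+OHT against shCDK12, 21 genes were higher and 2 lower, while in shNT+OHT against shNT, 0 were higher and 5 lower.

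All 3 transcription factors differed between the libraries labelled shCDK12 and shNT, with and without OHT. In these comparisons 29.6% of all genes tested were higher and 32.4% lower without OHT, and 23.8% and 21.6% with OHT. Upon OHT in shNT 0 of the 3 passed the test, and the count was also 0 at an unadjusted p under 0.05 and with DESeq2. By edgeR 9.05% of all genes rose there and 8.29% fell. TFE3 was at 254, 217 and 216 CPM in the shNT libraries, 287, 207 and 215 in shNT+OHT, 104, 93.2 and 96.8 in shCDK12, and 158, 164 and 183 in shCDK12+OHT. The 6 libraries labelled shCDK12 thus all lay below the 6 with shNT, and those with OHT lay above those without. The log2 difference between shCDK12 and shNT was -1.23 (SE 0.097, adjusted p = 5.45e-11) without OHT and -0.48 (SE 0.14, adjusted p = 0.0167) with OHT, the latter with an adjusted p of 0.0803 or 0.0705 without shCDK12+OHT library 1 or 2. TFE3 rose by 0.78 upon OHT in shCDK12 (SE 0.087, adjusted p = 1.08e-06), with a value of 0.049 in shNT (SE 0.14, adjusted p = 0.847), and the interaction was 0.73 (SE 0.17, adjusted p = 0.00168).

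TFEB was at 17.1, 26.5 and 29.6 CPM in shNT, 31.0, 23.9 and 25.8 in shNT+OHT, 15.3, 10.6 and 14.8 in shCDK12, and 15.9, 17.9 and 15.4 in shCDK12+OHT. The shCDK12 libraries lay below all shNT libraries without OHT, and likewise with OHT, and TFEB was lower by 0.85 (SE 0.23, adjusted p = 0.0026) and 0.71 (SE 0.19, adjusted p = 0.0118) on the log2 scale. The latter call was lost without shCDK12+OHT library 1 or 3 (adjusted p = 0.0625 and 0.0591), and the interaction of TFEB was 0.12 (SE 0.31, adjusted p = 0.786). MITF, which in its melanocyte form is known as a pigment cell regulator, went the other way. Its levels were 42.6, 46.8 and 32.1 CPM in shNT, 27.9, 42.9 and 45.2 in shNT+OHT, 52.1, 61.4 and 52.9 in shCDK12, and 72.1, 77.2 and 75.5 in shCDK12+OHT. All 6 libraries labelled shCDK12 lay above the 6 with shNT, by 0.43 without OHT (SE 0.14, adjusted p = 0.0126) and 0.99 with OHT (SE 0.18, adjusted p = 0.00114) on the log2 scale. Without shNT library 3 or shCDK12 library 2 the former had an adjusted p of 0.0747 or 0.056. OHT raised MITF by 0.42 in shCDK12 (SE 0.10, adjusted p = 0.00182), and the interaction of 0.55 (SE 0.24) did not pass the test (adjusted p = 0.0655).

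The promoters of the genes were searched for the E-box CACGTG and for TCACGTGA, the longer form to which the TFEB family is known to bind, which contains the shorter one. Both read the same on either strand. Promoter windows of 250 bases before and 50 after the start site were taken from RefSeq (GRCh38.p14) and matched 34 of the 44 genes, with 42 windows. CTSB, CTSK, CTSS, LAMP2, HEXA, PSAP, ATP6V1A, ATP6V1B2, ATP6V1H and UVRAG had no entry. CACGTG was found in 9 of the 42 windows (21.4%), 1 window in each of 9 genes, compared with 7.26% of all 35116 windows in the table. TCACGTGA was found in 5 (11.9%), compared with 0.98%. In 131 windows of other genes of the pathway, described below, CACGTG was found in 16.8% and TCACGTGA in 7.63%. The stretches around these matches are shown because they are the sites, by their letters alone, at which the factors above could bind; the matched letters are in capitals, with flanks of up to 30 bases, in the direction of the gene.
ATP6V0D1, chr16:67481180-67481247, minus strand: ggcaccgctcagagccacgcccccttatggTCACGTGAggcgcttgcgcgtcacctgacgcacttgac
CTSA, chr20:45891263-45891334, plus strand: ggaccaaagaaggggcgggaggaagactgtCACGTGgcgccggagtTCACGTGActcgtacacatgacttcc
GAA, chr17:80101474-80101580, plus strand: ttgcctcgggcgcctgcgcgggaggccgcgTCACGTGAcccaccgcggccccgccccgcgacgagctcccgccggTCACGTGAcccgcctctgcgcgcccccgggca
LAMP1, chr13:113297017-113297132, plus strand: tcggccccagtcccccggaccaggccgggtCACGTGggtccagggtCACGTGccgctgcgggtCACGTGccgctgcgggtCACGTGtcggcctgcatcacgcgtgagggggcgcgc
LAMP1, chr13:113297180-113297238, plus strand: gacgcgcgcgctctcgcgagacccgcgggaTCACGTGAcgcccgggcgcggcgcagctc
MCOLN1, chr19:7522552-7522623, plus strand: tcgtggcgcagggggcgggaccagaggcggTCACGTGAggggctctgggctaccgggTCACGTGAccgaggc
ATG14, chr14:55411831-55411881, minus strand: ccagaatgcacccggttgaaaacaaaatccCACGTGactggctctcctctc
CLCN7, chr16:1475029-1475105, minus strand: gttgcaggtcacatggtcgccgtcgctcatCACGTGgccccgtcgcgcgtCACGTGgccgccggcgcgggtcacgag
CTSD, chr11:1763939-1764004, minus strand: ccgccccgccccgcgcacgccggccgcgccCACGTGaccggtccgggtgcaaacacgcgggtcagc
NEU1, chr6:31862912-31862977, minus strand: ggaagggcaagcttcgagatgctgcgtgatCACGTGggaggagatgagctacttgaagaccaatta

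The 5 genes with the longer form were ATP6V0D1, CTSA, GAA, LAMP1 and MCOLN1, the cation channel mucolipin 1. GAA and MCOLN1 held it 2 times, as did LAMP1, in which 1 of the matches lies across the start site and is not printed. Of the 5 genes with the longer form, 1 (ATP6V0D1) had a positive interaction, and their median interaction was -0.15. Of the 9 genes with either form, 3 (ATP6V0D1, CTSD and ATG14) were positive, and the median was also -0.15. Among the 24 tested genes whose windows held neither form, 10 were positive and 1 negative, with a median of 0.47. Of all genes tested, 25.6% were positive and 19.6% negative, with a median of 0.10. ATG14 did not pass the interaction threshold with DESeq2. A difference between the genes with and without these letters was not tested. The matches are descriptions of letters in a window and do not show binding.

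**Figure D3:**
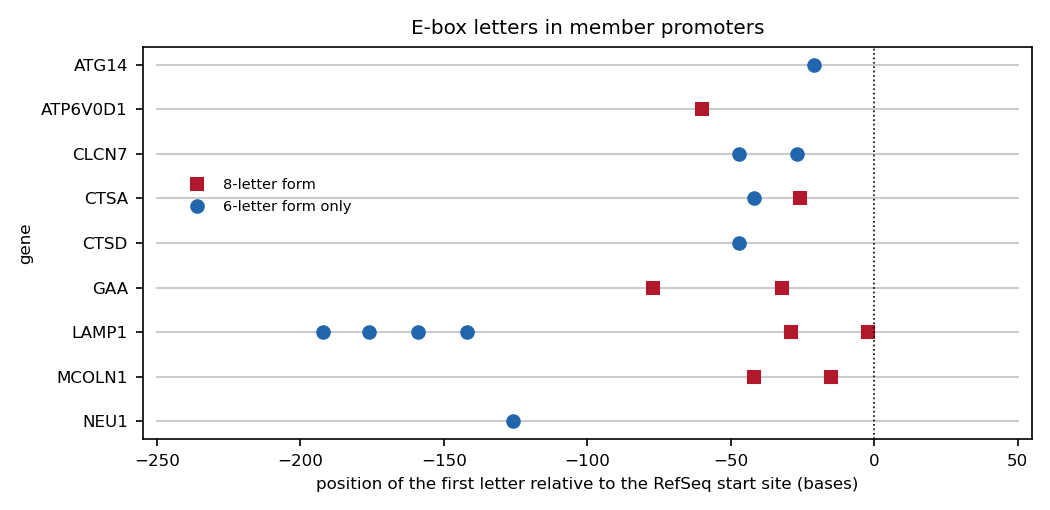
Positions of CACGTG (blue circles) and TCACGTGA (red squares) in the promoter windows of the 9 genes that held them, as the distance in bases of the first letter from the RefSeq start site (dotted line). In 8 of the 9 windows a match lay within the last 100 bases before the start site, and NEU1 had its match 126 bases before it.

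Among the cathepsins, CTSB, a cysteine protease, had the largest changes. CTSB was at 290, 314 and 329 CPM in shNT, 170, 152 and 149 in shNT+OHT, 63.9, 61.7 and 65.5 in shCDK12, and 154, 159 and 195 in shCDK12+OHT. The 3 shCDK12 libraries lay below every other library and the 3 shNT libraries above. OHT lowered CTSB by 0.99 with shNT (SE 0.12, adjusted p = 0.000135) and raised it by 1.41 with shCDK12 (SE 0.10, adjusted p = 5.56e-09), with an interaction of 2.39 (SE 0.16, adjusted p = 5.80e-10). Under OHT the libraries of the 2 shRNA labels overlapped, with a log2 difference of 0.12 (SE 0.13, adjusted p = 0.465), while without OHT shCDK12 was lower by 2.29 (SE 0.095, adjusted p = 2.14e-16).

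CTSZ, a carboxypeptidase, fell with shCDK12 but remained lower under OHT. Its levels were 80.3, 71.8 and 77.7 CPM in shNT, 79.9, 50.3 and 76.6 in shNT+OHT, 34.3, 31.1 and 32.2 in shCDK12, and 42.7, 44.6 and 49.7 in shCDK12+OHT. The 6 libraries labelled shCDK12 lay below all 6 with shNT, by 1.24 without OHT (SE 0.13, adjusted p = 1.50e-08) and 0.61 with OHT (SE 0.17, adjusted p = 0.0132) on the log2 scale. CTSD, the aspartic protease of lysosomes, was at 26.2, 18.2 and 18.5 CPM in shNT, 17.2, 13.2 and 20.0 in shNT+OHT, 19.5, 14.9 and 15.7 in shCDK12, and 34.2, 33.3 and 27.8 in shCDK12+OHT. Only the shCDK12+OHT libraries stood apart, above all others. The rise of CTSD upon OHT in shCDK12 was 0.96 (SE 0.15, adjusted p = 4.45e-05) and its interaction 1.22 (SE 0.29, adjusted p = 0.00212). CTSA and CTSL passed the test in none of the comparisons, with log2 values between -0.37 and 0.20; the smallest adjusted p was 0.0553, for CTSL upon OHT in shCDK12.

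In the lumen, NPC2, which carries cholesterol to the membrane protein NPC1, followed the order of CTSB. NPC2 was at 58.1, 64.4 and 66.7 CPM in shNT, 21.0, 28.0 and 33.6 in shNT+OHT, 13.2, 10.3 and 10.9 in shCDK12, and 23.4, 29.7 and 30.3 in shCDK12+OHT. Without OHT the libraries of the 2 shRNA labels were far apart, and with OHT they overlapped. The log2 fold change upon OHT was -1.19 in shNT (SE 0.21, adjusted p = 0.00181) and 1.30 in shCDK12 (SE 0.16, adjusted p = 4.46e-06), and the interaction was 2.48 (SE 0.27, adjusted p = 4.24e-07). The difference between shCDK12 and shNT was -2.48 without OHT (SE 0.17, adjusted p = 2.98e-12) and 0.030 with OHT (SE 0.22, adjusted p = 0.92). NPC2 overlaps SYNDIG1L and a microRNA gene, and whether strand was used in counting is not stated.

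PSAP, the precursor of the saposins that help sphingolipid breakdown, was at 209, 196 and 209 CPM in shNT, 167, 142 and 163 in shNT+OHT, 193, 169 and 194 in shCDK12, and 285, 309 and 303 in shCDK12+OHT. The shCDK12+OHT libraries lay above all others and the shNT+OHT libraries below all others. PSAP rose by 0.69 upon OHT in shCDK12 (SE 0.080, adjusted p = 1.71e-06), and its value of -0.37 in shNT (SE 0.13) had an adjusted p of 0.0526. The interaction was 1.06 (SE 0.14, adjusted p = 5.03e-06). The glycosidase genes did not share these values. GLA fell by 0.60 upon OHT in shCDK12 (SE 0.15, adjusted p = 0.00276), with a value of 0.26 in shNT (SE 0.26, adjusted p = 0.515), and NEU1, a sialidase, rose by 0.42 in shCDK12 against shNT without OHT (SE 0.12, adjusted p = 0.00332). GUSB and HEXA passed the test in none of the comparisons, and GAA in none of the 3 in which it was tested.

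**Figure D4:**
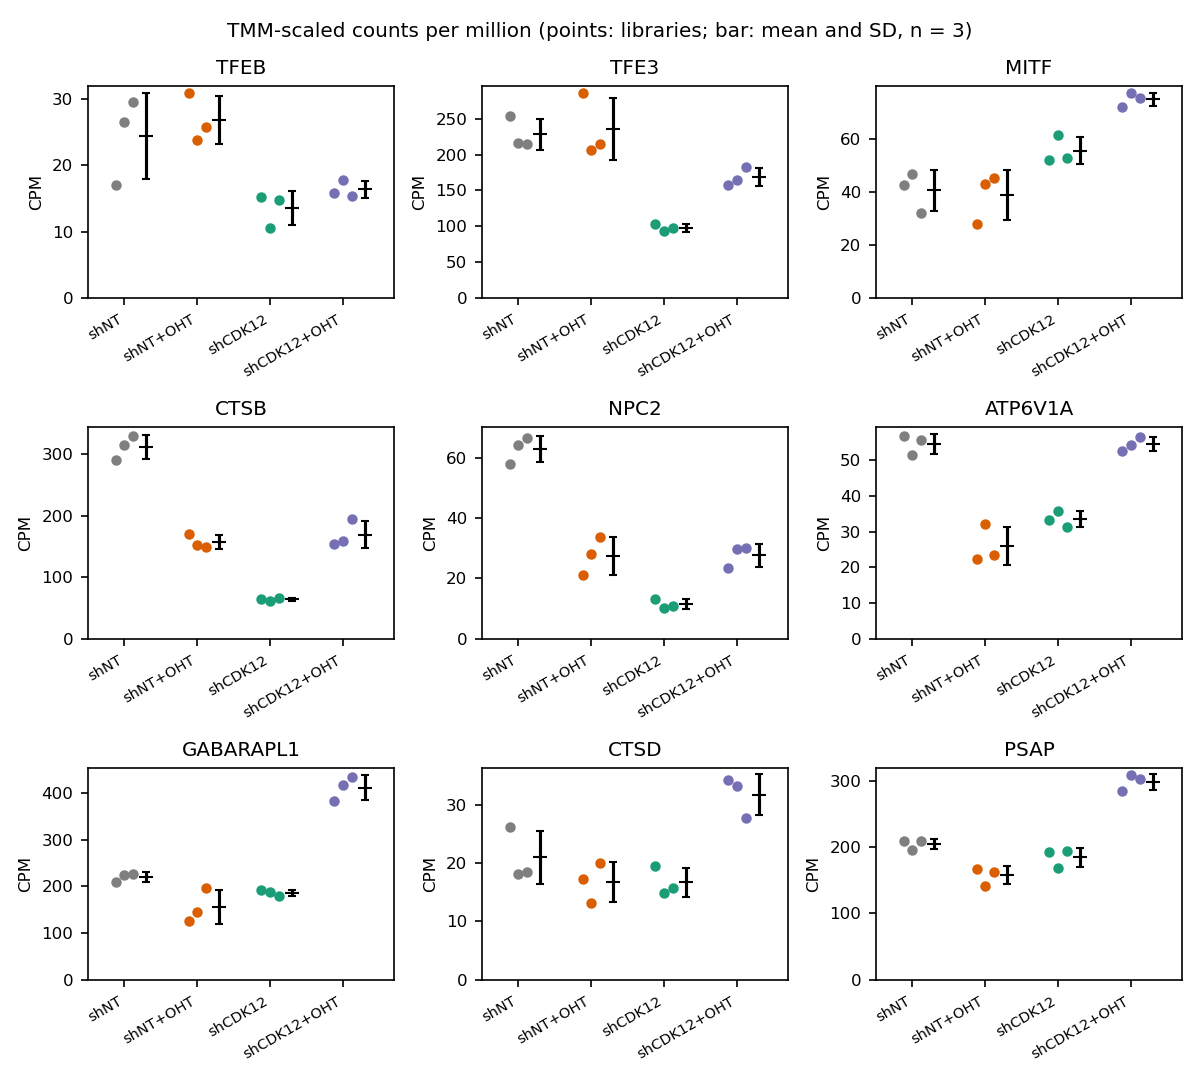
TMM-scaled CPM of 9 genes in each library (points) with the mean and SD of each group (bars, n = 3), on axes that start at 0. CTSB and NPC2 are lowest in the libraries labelled shCDK12 and similar in both groups with OHT, whereas GABARAPL1, CTSD and PSAP are highest in those labelled shCDK12+OHT.

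Of the membrane proteins, SCARB2, also known as LIMP-2, was at 71.2, 75.3 and 58.1 CPM in shNT, 49.5, 49.5 and 44.1 in shNT+OHT, 41.9, 50.4 and 47.6 in shCDK12, and 63.7, 64.0 and 64.4 in shCDK12+OHT. It was thus lower with either OHT or shCDK12 alone than in shNT, and the libraries with both lay within the range of shNT. SCARB2 fell by 0.53 upon OHT in shNT (SE 0.17, adjusted p = 0.0445), a call that was lost in 10 of the alternatives, with adjusted p up to 0.213, and rose by 0.45 in shCDK12 (SE 0.10, adjusted p = 0.00148). Its interaction was 0.99 (SE 0.19, adjusted p = 0.000252). NPC1, the cholesterol exporter, was at 71.4, 67.7 and 58.6 CPM in shNT, 58.9, 47.8 and 58.6 in shNT+OHT, 38.4, 33.8 and 34.6 in shCDK12, and 42.8, 41.5 and 44.1 in shCDK12+OHT. All libraries labelled shCDK12 lay below those with shNT, with a log2 difference of -0.91 without OHT (SE 0.14, adjusted p = 2.77e-06) and -0.37 with OHT (SE 0.14, adjusted p = 0.0547). LAMP1 rose in shCDK12 against shNT by 0.60 without OHT (SE 0.10, adjusted p = 1.51e-05) and 0.39 with OHT (SE 0.11, adjusted p = 0.016). LAMP2 had a positive interaction of 0.86 (SE 0.25, adjusted p = 0.00833). MCOLN1 and CLCN7, a chloride-proton exchanger, passed the test in none of the comparisons, with from 7.42 to 24.1 CPM per library.

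The V-ATPase subunits had the largest median interaction of the role groups. Upon OHT the median log2 fold change of the 5 subunits was -0.46 in shNT, where 1 fell, and 0.62 in shCDK12, where 4 rose. Of all genes tested, 8.29% fell in shNT and 27.5% rose in shCDK12, with medians of -0.029 and 0.048. In shCDK12+OHT against shNT+OHT 4 of 5 were higher, and 4 of 5 had a positive interaction, with a median of 0.99. Over all genes these shares were 23.8% and 25.6%. These directions held under DESeq2 and upper-quartile normalization. ATP6V1A, the catalytic subunit of the soluble part, was at 56.9, 51.5 and 55.6 CPM in shNT, 22.2, 32.2 and 23.5 in shNT+OHT, 33.4, 35.9 and 31.3 in shCDK12, and 52.7, 54.3 and 56.6 in shCDK12+OHT. It was low with either OHT or shCDK12 alone, and its levels in shCDK12+OHT overlapped those in shNT. ATP6V1A fell by 1.12 upon OHT in shNT (SE 0.21, adjusted p = 0.00246) and rose by 0.69 in shCDK12 (SE 0.11, adjusted p = 4.62e-05), with an interaction of 1.83 (SE 0.21, adjusted p = 9.03e-07).

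ATP6V1B2, the other nucleotide-binding subunit, was at 67.7, 77.1 and 63.6 CPM in shNT, 40.4, 56.9 and 71.0 in shNT+OHT, 50.0, 62.0 and 59.6 in shCDK12, and 89.5, 92.1 and 96.1 in shCDK12+OHT. The shCDK12+OHT libraries lay above all others, and the shNT+OHT libraries were widely spread. The interaction of ATP6V1B2 was 1.00 (SE 0.23, adjusted p = 0.00132). ATP6V0D1, of the membrane part, was at 35.1, 37.9 and 26.6 CPM in shNT, 24.1, 26.4 and 20.6 in shNT+OHT, 39.4, 30.1 and 29.2 in shCDK12, and 47.1, 45.6 and 40.6 in shCDK12+OHT. The shNT+OHT libraries were the lowest and the shCDK12+OHT libraries the highest, with a log2 difference of 0.95 (SE 0.17, adjusted p = 0.00128) and an interaction of 0.99 (SE 0.25, adjusted p = 0.00296; 0.106 with thinned libraries). ATP6AP1, an accessory subunit, was at 52.9, 52.7 and 54.1 CPM in shNT, 42.6, 43.7 and 44.1 in shNT+OHT, 37.1, 41.9 and 45.9 in shCDK12, and 60.6, 64.7 and 68.0 in shCDK12+OHT. Its libraries with both OHT and shCDK12 lay above all others, and its interaction was 0.92 (SE 0.18, adjusted p = 0.000392). ATP6V1H, with from 3.45 to 23.2 CPM, passed the test in none of the comparisons.

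GABARAPL1, an ATG8-type protein that coats autophagic membranes, was at 209, 225 and 227 CPM in shNT, 126, 146 and 196 in shNT+OHT, 192, 188 and 179 in shCDK12, and 384, 418 and 436 in shCDK12+OHT. Every shCDK12+OHT library was well above all others. It rose by 1.15 upon OHT in shCDK12 (SE 0.077, adjusted p = 2.93e-09) and was higher by 1.42 in shCDK12+OHT than in shNT+OHT (SE 0.15, adjusted p = 5.06e-05), with an interaction of 1.63 (SE 0.17, adjusted p = 4.10e-07). Its fall of 0.49 upon OHT in shNT (SE 0.15, adjusted p = 0.0384) was lost when shNT library 1, 2 or 3 or shNT+OHT library 1 or 2 was left out, with adjusted p between 0.058 and 0.146. MAP1LC3B, which encodes LC3B, did not follow GABARAPL1. It was higher in shCDK12 than in shNT by 0.75 without OHT (SE 0.085, adjusted p = 3.52e-08) and 0.61 with OHT (SE 0.16, adjusted p = 0.00917), with an interaction of -0.17 (SE 0.18, adjusted p = 0.477). Their near-identical copies GABARAPL3 and MAP1LC3B2 had at most 11 and 47 counts per library, and how reads shared between copies were counted is uncertain. SQSTM1 fell by 0.49 in shCDK12 against shNT (SE 0.089, adjusted p = 4.64e-05), rose by 0.68 upon OHT in shCDK12 (SE 0.081, adjusted p = 2.39e-06) and had an interaction of 0.69 (SE 0.15, adjusted p = 0.000884). SQSTM1 overlaps MGAT4B and MRNIP in the annotation.

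At the start of autophagy, ULK1 and its partner ATG13 fell in shCDK12 against shNT by 0.57 (SE 0.17, adjusted p = 0.00639) and 0.38 (SE 0.11, adjusted p = 0.0051), rose upon OHT in shCDK12 by 0.68 (SE 0.15, adjusted p = 0.00107) and 0.42 (SE 0.096, adjusted p = 0.00149), and had interactions of 0.84 (SE 0.26, adjusted p = 0.0117) and 0.80 (SE 0.18, adjusted p = 0.00118). ATG14, which directs the PI3 kinase complex to the phagophore, was at 76.4, 84.3 and 77.2 CPM in shNT, 70.5, 78.4 and 72.5 in shNT+OHT, 116, 129 and 120 in shCDK12, and 146, 149 and 147 in shCDK12+OHT. All 6 libraries labelled shCDK12 lay above the 6 with shNT, by 0.62 without OHT (SE 0.10, adjusted p = 1.51e-05) and 1.03 with OHT (SE 0.12, adjusted p = 8.63e-05) on the log2 scale. ATG14 overlaps FBXO34. UVRAG, found in the PI3 kinase complex of endosomes, rose by 0.61 in shCDK12 against shNT (SE 0.13, adjusted p = 0.000215) and fell by 0.25 upon OHT in shCDK12 (SE 0.097, adjusted p = 0.0377). BECN1 passed the test in none of the comparisons.

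In the phagophore machinery, 0 of the 7 genes passed the interaction test by edgeR, and the count was also 0 at an unadjusted p under 0.05 and with DESeq2. Their interactions ranged from -0.40 for ATG16L1 to 0.70 for WIPI1, with a median of 0.37. By edgeR 25.6% of all genes tested were positive and 19.6% negative, with a median of 0.10. ATG2A, a lipid transfer protein, ATG5 and ATG16L1, which act together in lipidation of ATG8 proteins, rose in shCDK12 against shNT without OHT by 0.51, 0.33 and 0.57 (SE 0.15, 0.14 and 0.13), and ATG2B fell by 0.50 (SE 0.21, adjusted p = 0.042). ATG2A, ATG5 and ATG9A rose upon OHT in shCDK12, by 0.35, 0.31 and 0.58 (SE 0.10, 0.10 and 0.14). ATG7 passed the test in none of the comparisons and WIPI1 in none of the 4 in which it was tested. A difference between the phagophore genes and the other role groups was not itself tested.

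The responses to OHT with shNT and with shCDK12 rest on separate libraries and can be set side by side. Of the 39 genes tested in both, 31 had log2 fold changes of opposite sign. In 22 the value was negative in shNT and positive in shCDK12, and in 9 the reverse, while 6 were positive and 2 negative in both. Across these genes, which share libraries within each comparison and are not independent, Pearson's r was -0.665 and Spearman's rho -0.606, given as descriptions. Most values in shNT did not pass the test, so the sign of a single gene there is uncertain. The share of opposite signs and these correlations were not computed over all genes, so neither is shown to be particular to this list. Over all genes, the interaction was positive in 25.6% and negative in 19.6%.

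**Figure D5:**
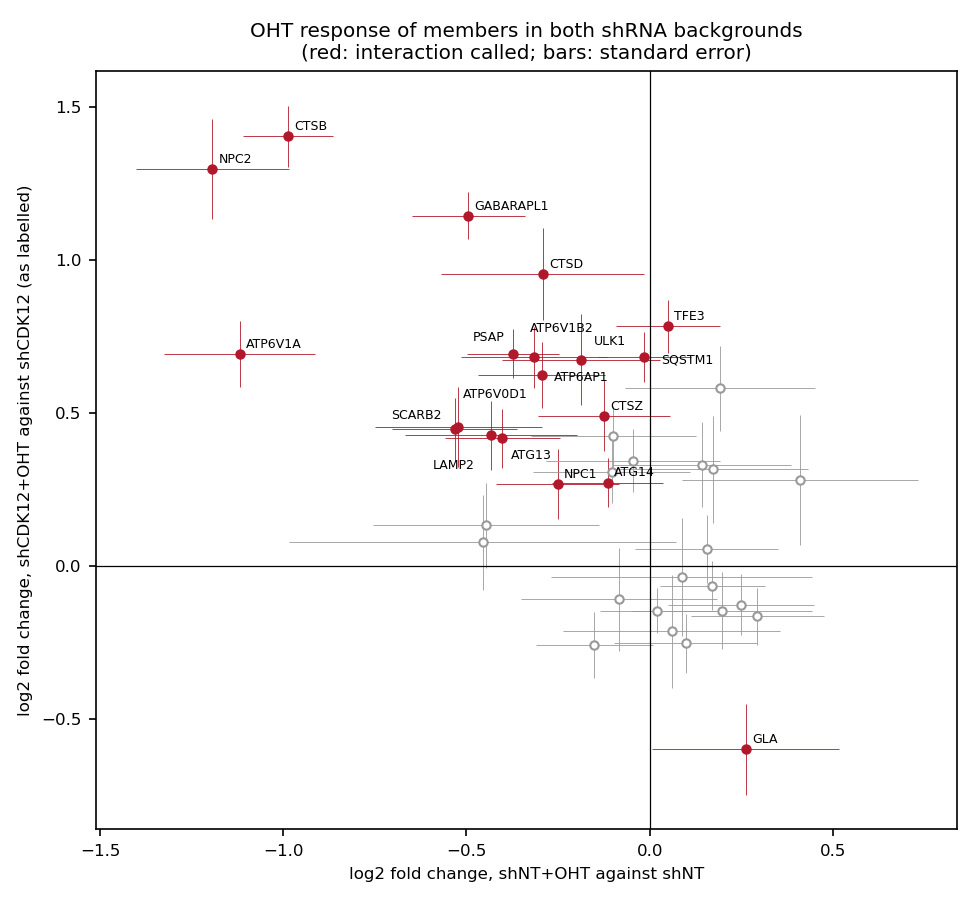
Log2 fold change upon OHT in shNT (horizontal) and in the libraries labelled shCDK12 (vertical) for the 39 genes tested in both, with bars for the standard error. Genes with a called interaction are red and named, and 22 of the 39 genes lie in the upper left part, lower upon OHT in shNT and higher in shCDK12.

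The 115 other genes of the pathway that were listed (further enzymes, membrane proteins, V-ATPase subunits, autophagy genes and receptors, the mTORC1 machinery at the lysosome and the mannose 6-phosphate sorting route) gave counts of a similar kind. Upon OHT in shNT 14 of 95 tested fell (14.7%) and 3 rose (3.16%), against 8.29% and 9.05% of all genes. The median log2 fold change was -0.20. Upon OHT in shCDK12 52 of 107 rose (48.6%) and 7 fell (6.54%), against 27.5% and 21.5% of all genes. The median there was 0.35. In shCDK12 against shNT without OHT 41 of 107 fell (38.3%) and 26 rose (24.3%), near the 32.4% and 29.6% of all genes. With OHT 44 of 106 were higher (41.5%) and 10 lower (9.43%), against 23.8% and 21.6% of all genes. The interaction was positive for 50 of 106 (47.2%) and negative for 9 (8.49%), against 25.6% and 19.6% of all genes. Its median was 0.65.

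The largest interactions were those of VMP1, a membrane protein needed for phagophore formation (2.46, SE 0.20, adjusted p = 1.28e-08), and OPTN, a receptor for damaged mitochondria (2.31, SE 0.35, adjusted p = 2.81e-05). Those furthest below 0 were FYCO1, which links autophagosomes to kinesin (-1.27, SE 0.18, adjusted p = 1.37e-05), and ATG101 of the ULK complex (-0.88, SE 0.18, adjusted p = 0.000492). VMP1 fell by 1.14 upon OHT in shNT and was lower by 3.04 in shCDK12 than in shNT. In shCDK12+OHT against shNT+OHT the mitophagy receptor BNIP3L was higher by 2.22 (SE 0.20, adjusted p = 1.78e-05) and the GTPase RRAGD by 2.10 (SE 0.36, adjusted p = 0.000924). FYCO1 and ATG101 rose upon OHT in shNT, by 0.90 (SE 0.15) and 0.56 (SE 0.16), and OPTN was lower by 0.94 (SE 0.30), with overlapping libraries. LGMN, an asparaginyl protease, rose by 1.64 and BNIP3 by 1.02 in shCDK12 against shNT, both without OHT (SE 0.19 and 0.20). Upon OHT in shCDK12, SLC17A5, the lysosomal sialic acid exporter, rose by 1.57 (SE 0.20) and OPTN by 1.36 (SE 0.18), while LGMN fell by 0.47 (SE 0.14) and NPRL2 by 0.46 (SE 0.16).

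The further V-ATPase subunits gave medians of the same sign as the 5 above. Upon OHT 2 of 10 fell in shNT, with a median log2 fold change of -0.43, and 6 of 10 rose in shCDK12, with a median of 0.40, and 7 of 10 had a positive interaction. Of the 10 other autophagy receptors, 4 fell and 1 rose upon OHT in shNT, and 8 rose and 1 fell in shCDK12. Their interaction was positive for 8 and negative for 1, with a median of 1.03, above the 0.99 of the 5 V-ATPase subunits. Over all genes, 8.29% fell and 9.05% rose upon OHT in shNT, and 27.5% rose and 21.5% fell in shCDK12. Of the 21 genes of mTORC1 and nutrient sensing at the lysosome, 6 had a positive and 2 a negative interaction (28.6% and 9.52%, against 25.6% and 19.6% of all genes).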

How the data were processed

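EU-seq counts of 12 libraries in 4 groups were analysed. The authors deposited raw counts per Entrez gene, without normalization, in a table of 23434 genes; the submitters' processing notes name hg19, STAR 2.7.5c and featureCounts 1.4.5-p1, and the use of strand and of the mouse spike-in is not stated in the sources used here. Symbols came from RefSeq (GRCh38.p14) for 23284 of the rows. Each pair of groups was fitted in its 6 libraries, and the interaction in all 12, with edgeR 4.0.16 in R 4.3.3 (TMM, quasi-likelihood test, Benjamini-Hochberg adjustment, threshold 0.05) keeping genes whose mean normalized count exceeded 32; SEs are the fold change divided by the root of F. The script was tested on simulated data. Counts per library of 1251695 to 10447836 limit precision, most of all in shNT+OHT. The genes and lists were chosen with earlier results of these data known. Values in every library are given for TFEB, TFE3 and MITF, the 10 members with the largest called interactions, and the 5 with the largest called, non-overlapping changes in each other comparison; of the other pathway genes, the 2 largest called changes each way are named, except for some results that are not reported here. Other members were named after their values were seen. Alternatives were DESeq2 1.42.0, upper-quartile normalization, no filter, a minimum of 100, a replicate block, a fit of all 12 libraries, thinning to 1251695 counts and leaving out each library. Promoter windows came from RefSeq.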

Additional observations from a re-analysis of the deposited data

Results flagged for a closer look

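The 12 genes listed here are TFE3, CDK12 and the members with the largest called interactions. In each, the response to OHT differed between the libraries labelled shNT and shCDK12 by the edgeR interaction test (log2 difference of the responses). They are not all the genes called, since 18 of the 41 members tested had a positive interaction and 1, GLA, a negative one. The interaction was 2.48 for NPC2, 2.39 for CTSB, 1.83 for ATP6V1A, 1.63 for GABARAPL1, 1.22 for CTSD, 1.06 for PSAP, 1.00 for ATP6V1B2, 0.99 for SCARB2, 0.99 for ATP6V0D1, 0.92 for ATP6AP1 and 0.73 for TFE3. For NPC2, CTSB, ATP6V1A, GABARAPL1 and SCARB2 a called fall upon OHT in shNT stood against a called rise in shCDK12; for GABARAPL1 and SCARB2 the fall was lost in some of the alternatives. CDK12 itself had an interaction of -0.83, with a rise of 0.38 upon OHT in shNT and a fall of 0.44 in shCDK12 on the log2 scale. The rise was lost without shNT library 1, 2 or 3 or shNT+OHT library 3.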

How the results depend on the processing

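Of 47 values for the 3 transcription factors, CDK12 and the members with the largest changes, 33 kept their direction and their side of the threshold in every alternative, 8 lost their call in at least 1, 1 gained a call and 5 changed sign in at least 1. The number of members that fell upon OHT in shNT was 8 (5 as reported) in a fit of all 12 libraries. That fit gave 1680 falls among all 11699 genes tested, with 852 of 10272 as reported. With libraries thinned to 1251695 counts, 9 fell (14) in shCDK12 against shNT, 13 rose (21) and 0 fell (2) upon OHT in shCDK12, 2 were lower (4) in shCDK12+OHT against shNT+OHT, and 0 had a negative interaction (1). Among all genes the thinned fits gave 2266 falls of 7498 tested in shCDK12 against shNT. Upon OHT in shCDK12 they gave 1609 rises and 1569 falls of 7430. In shCDK12+OHT against shNT+OHT 1819 of 7376 were lower, and 1596 of 7451 interactions were negative. The number that fell upon OHT in shCDK12 was 4 with DESeq2, 4 with upper-quartile normalization and 1 in the fit of all 12 libraries, and the number with a negative interaction was 2 with DESeq2, 3 with upper-quartile normalization and 2 without a filter. Among all genes, falls numbered 2900 with DESeq2, 3226 with upper-quartile normalization and 1862 in the fit of all 12 libraries (2686 as reported). Negative interactions numbered 2609 with DESeq2, 2777 with upper-quartile normalization and 2570 without a filter (2295 as reported). The smaller counts after thinning come with fewer counts per library; the cause of the other changes was not tested. Changed signs were those of MITF upon OHT in shNT (0.11 when thinned), of CDK12 in shCDK12 against shNT (0.015 with upper-quartile normalization) and of the TFEB interaction (-0.0069 with upper-quartile normalization).

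Leaving out each library in turn gave 3 to 6 members that fell upon OHT in shNT; 7 to 9 that rose and 11 to 14 that fell in shCDK12 against shNT; 19 to 23 that rose and 1 to 4 that fell upon OHT in shCDK12; 13 to 17 higher and 0 to 5 lower in shCDK12+OHT against shNT+OHT; and 15 to 21 positive and 0 to 3 negative interactions. Values that changed sign ranged from -0.044 to 0.33 for TFEB, -0.11 to 0.16 for TFE3 and -0.24 to 0.11 for MITF upon OHT in shNT, and from -0.077 to 0.33 for the TFEB interaction. The SCARB2 fall upon OHT in shNT had an adjusted p of 0.0616 with DESeq2, 0.0632 with upper-quartile normalization, 0.0624 without a filter and 0.109 when thinned. Of 18 same-numbered pairs of libraries, 2 had a correlation of deviations over 0.1, with a median of 0.029. Those 2 were shNT+OHT with shCDK12, libraries 1 (0.28) and 2 (0.31). Of 36 differently numbered pairs 0 were over 0.1, with a median of -0.017 and a lowest value of -0.35. Whether libraries of the same number share a source was not tested, and the reported fits did not pair them. With the replicate block 4 members fell upon OHT in shNT, 15 fell in shCDK12 against shNT and 22 rose upon OHT in shCDK12, and the SCARB2 call in shNT was lost (adjusted p = 0.0663). The log2 fold changes upon OHT in shNT went with gene span over all genes (Spearman's rho -0.319, and -0.174 over the members). For shCDK12+OHT against shNT+OHT rho was 0.232 (0.205 over the members), and for the interaction 0.228 (0.0758). Upon OHT in shCDK12 it was 0.115 (-0.0286), and for shCDK12 against shNT without OHT -0.0486 (0.0179). Gene span was not adjusted for.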
